A study of Mus musculus with 16 samples.

Results

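Cd2, Ly9, Gimap3, Gimap4, Gimap6, Cd8a, Lck, Cd79b and Cd209a are genes of immune cells, proposed as lymphocyte genes that rise in the aged brain of mice lacking the transporter Slc5a8. They were found by taking every non-control probe of the scanner files whose gene name equals a member, which gave 15 of 55681 probes for 9 of 34821 gene names. After the filter on dim probes, 8 of the 9 could be tested among 23030 genes, and Cd8a could not. They were chosen by measured values of these same arrays, as genes higher in old deficient brain, and the data went against that name for 5 of the 9. Cd2, Ly9, Gimap3 and Cd209a were higher in old than in young deficient brain, Lck and Cd79b overlapped between these groups, Gimap4 and Gimap6 had lower means in the old deficient group, and Cd8a was at background throughout. Cd209a is in addition a dendritic cell and macrophage lectin and not a lymphocyte gene, and it stood as high in old wild-type brain.

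RNA of whole brain from male C57BL/6J mice was hybridised to 16 Agilent whole-genome arrays in 1 colour (Cy3). The 4 groups were young wild type, young Slc5a8-deficient, old wild type and old Slc5a8-deficient, where young means 4 months and old means 18 months, with 4 arrays each, which the design text calls biological replicates. The allele behind the deficiency is not given in the sources used here, and no treatment is named. Slc5a8 carries short organic acids, lactate and ketone bodies among them, into cells together with sodium.

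Few lymphocytes enter the healthy brain tissue itself, and most of those in a whole-brain sample sit in the meninges, the choroid plexus and the blood left in the vessels. T cells are recognised by the CD3 chains with either CD4 or CD8 and by Lck, the kinase that starts signalling at the T cell receptor, while B cells carry CD20 (Ms4a1) and the CD79 pair. GIMAP proteins are GTPases that support the survival of lymphocytes and are encoded side by side in a cluster, and some are also made in endothelium. In a bulk sample, a change in the number of cells of a type and a change in RNA per cell cannot be told apart.

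On the arrays a gene is read by 60-base probes, and 5 of the 9 genes have more than 1 probe. The last 30 bases of the probes on which the results turn are shown because probes of the same gene did not give the same answer. The name is followed by the first position in the transcript that the files list for the probe, the sequence runs 5′ to 3′ as in the files, and capitals mark the letters AATAAA, the polyadenylation signal found near the end of many messenger RNAs.
Cd2 position 1084: tccAATAAAaagctgtgtggatttatcttc
Cd2 position 627: aaaggtctgtccttctatgtcacagtgggg
Ly9 position 1964: ttcacctgaaaggaaaagcggctgctactt
Ly9 position 1875: aatctactgctctgtgcagaagcctaaaaa
Lck position 2085: tgcctagcacacaccaggagctcAATAAAa
Gimap3 position 2085: cctAATAAAcagagaccttgataggaaaga
Gimap4 position 1565: acacaagttagcagctcagcaggtgacatc
Gimap4 position 1060: cccttgataaccctgccctatagtgctcac
Gimap6 position 1468: agcagagatcctgaggagtcaaatatgaga
Cd209a position 1338: cccaaattttttggaggatttataattttt
Cd209a position 289: ctcaggaagaaaacaatcagatgaatgtct
The motif AATAAA, searched on the printed strand in the last 30 bases, occurred in 3 of the 15 member probes and in 8.2% of all 55681 probes. This count describes the probe sequences only, and whether the motif serves as a signal in these transcripts was not tested.

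Between 58.4% and 66.1% of an array's 59305 non-control spots exceeded background clearly, and 75th percentiles of processed signal were 626 to 1348. A level below is the log2 signal relative to that percentile of the same array, so that it can be compared between arrays for 1 probe but not between probes. The targeted gene, Slc5a8, has 1 probe, which was well above background on 0 of the 16 arrays (levels from -7.90 to -6.34), so it checks no genotype label. The brain markers Snap25, Mbp and Gfap were well above background on all 16 arrays. All deficient arrays lay on 1 slide and were scanned together, and all wild-type arrays lay on the other, so that a slide effect and a genotype effect cannot be told apart. Old deficient and young wild-type arrays occupied 1 row of their slides and the other groups the other row. Within each genotype the row therefore cannot be told apart from age. Over the 4 groups it cannot be told apart from the interaction of age and genotype. Young deficient array 1 stood apart, with the lowest 75th percentile and the highest value of the 16 arrays for 29.8% of all probes.

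The genes were proposed for a rise in old deficient brain. For them, comparisons that hold those arrays are given as differences ± SE from limma's fit of all 16 arrays, without p-values. Where members are said to be called in these comparisons, the call reuses the values they were chosen by and supports no difference. Genotype in young mice and age in wild-type mice do not use those arrays and were tested, although each shares a group with a comparison that does. A gene is called where its Benjamini-Hochberg adjusted p over all 23030 genes is under 0.05. Between old and young deficient brain 4 of the 8 measured genes were called higher, where 1.26% of all tested genes were, and 0 lower, which only restates how the genes came to be proposed. Ly9 and Gimap3 passed the filter on dim probes only through the old deficient group, where they are high, so neither this count nor the counts of separated arrays and the medians that follow support a difference. The 4 arrays of old deficient mice did not overlap with the 4 of young deficient mice for 5 of the 8 (higher for the 4 called genes and lower for Gimap6), where 7.8% of all genes were apart with the old higher and 10.1% with the old lower. In the genotype comparison of old mice 0 of the 8 were called, where 1.47% of all genes were, though Cd2 was called without old wild-type array 3, at a difference of 1.40. In the interaction 0 of the 8 were called, where 0.187% of all genes were. Over the 8 genes the median difference was 0.76 with age in deficient mice, against -0.01 for all genes, and 0.24 with genotype in old mice, against 0.01 for all genes. In young mice the genotype difference was called for 0 of the 8 genes, where 1.53% of all genes were called, and 2 of the 8 had an unadjusted p under 0.05, as did 17.4% of all genes. In wild-type mice the age difference was called for 0 of the 8, where 0.421% of all genes were, and 1 had an unadjusted p under 0.05, as did 6.35% of all genes. The median difference was -0.04 in the first of these and 0.12 in the second.

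**Figure D1:**
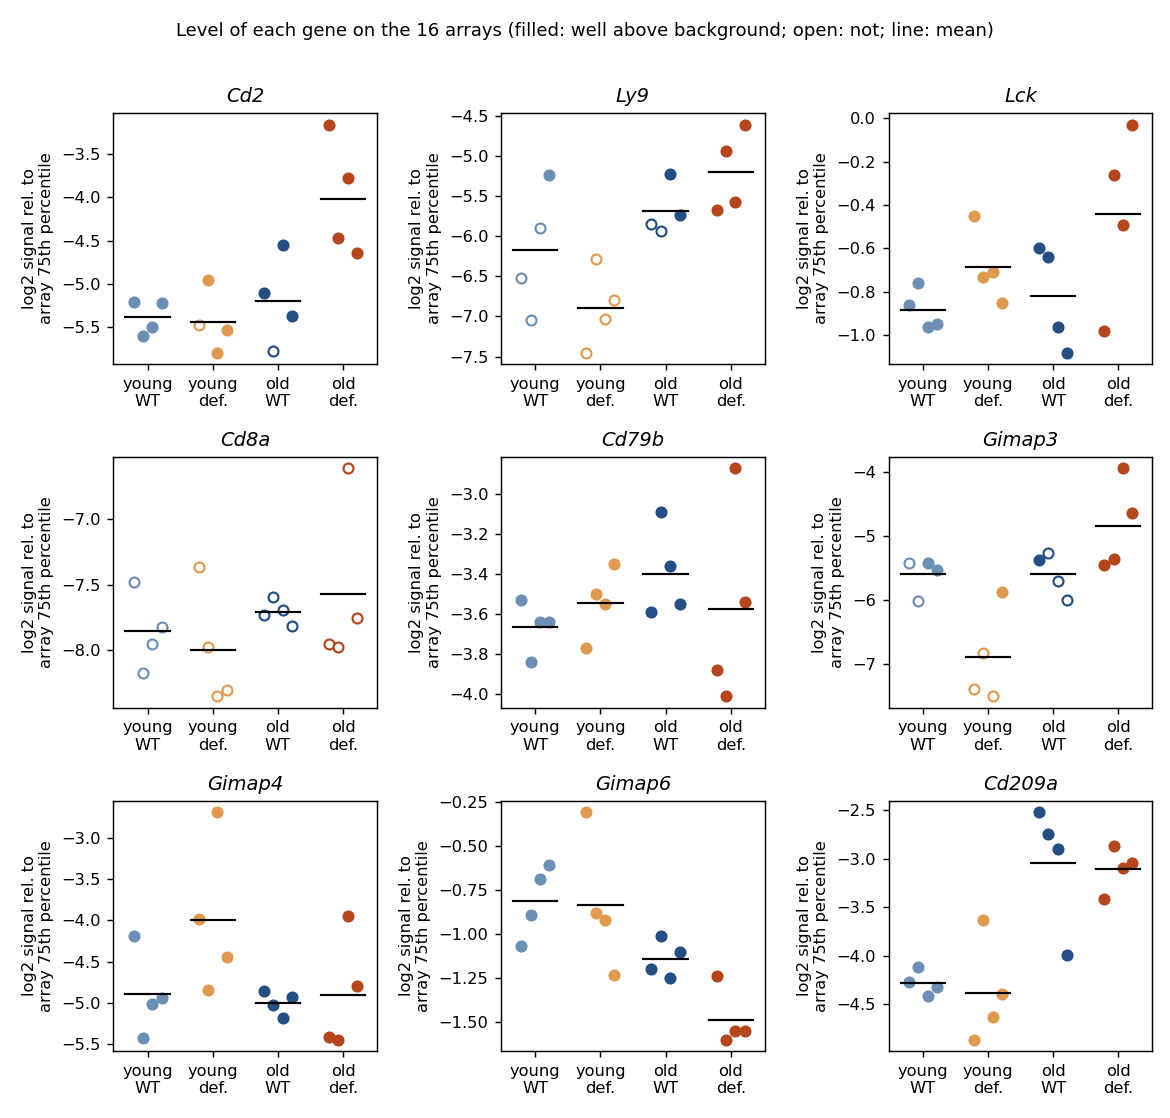
Level of each of the 9 genes (vertical axes, log2 signal relative to the array's 75th percentile, with a scale of its own per panel) on the 4 arrays of each group, with 1 point per array, filled where the probe was well above background and open where it was not, and a line at the group mean. Old deficient arrays sit above all young deficient arrays for Cd2, Ly9, Gimap3 and Cd209a and below them for Gimap6, while all points of Cd8a are open.

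Cd2 is an adhesion receptor of T and NK cells that binds CD48 in the mouse. Its brighter probe lies at chr3:101079831-101079890 on the minus strand (NCBI37/mm9) and was well above background on 14 of the 16 arrays. In deficient mice its levels were -5.47, -4.95, -5.79 and -5.53 on the young arrays and -3.16, -4.47, -3.78 and -4.64 on the old arrays 1 to 4. In wild-type mice they were -5.21, -5.60, -5.50 and -5.22 on the young arrays and -5.10, -5.77, -4.55 and -5.37 on the old. The old deficient arrays were thus the high ones, and of the old wild-type arrays only array 3 reached into their range. Old exceeded young by 1.42 ± 0.31 in deficient mice (2.68-fold), and deficient exceeded wild type by 1.19 ± 0.31 among old mice (2.28-fold). Young deficient and young wild-type brain differed by -0.05 ± 0.31 (95% interval -0.70 to 0.60, limma adjusted p = 0.95). Old and young wild-type brain differed by 0.19 ± 0.31 (95% interval -0.47 to 0.84, limma adjusted p = 1). The interaction, which is the age difference in deficient minus that in wild-type mice, was 1.24 ± 0.43.

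The other Cd2 probe, printed in 10 spots per array, reads bases that are spread over 3180 bases of the genome and so crosses a splice junction. It was well above background on 0 of the 16 arrays. Its levels on old deficient arrays were -7.75, -7.77, -6.36 and -7.46, and those on the 12 other arrays ran from -8.34 to -7.23. Only old deficient array 3 left that range, and 1 of its 9 usable spots was well above background. The rise of Cd2 in old deficient brain therefore rests on a single probe.

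Ly9 (CD229) is a receptor of the SLAM family on T and B cells that binds to itself on neighbouring cells. The coordinates that the files list for its probe at position 1964 cover 47 bases, fewer than the probe's 60. In deficient mice the probe at position 1964 (chr1:173518744-173518790, minus strand, NCBI37/mm9) gave -7.45, -6.29, -7.03 and -6.79 on the young arrays and -5.67, -4.94, -5.57 and -4.61 on the old. In wild-type mice it gave -6.52, -7.04, -5.90 and -5.24 on the young arrays and -5.85, -5.93, -5.23 and -5.73 on the old. It was well above background on 4 old deficient, 2 old wild-type, 1 young wild-type and 0 young deficient arrays. The young deficient level is thus signal at background, and no fold is given for age in deficient mice. The means of -5.20 in old and -6.89 in young deficient brain differed by 1.69 ± 0.35. Other treatments of background, described below, reduced this difference to 0.32 and 0.43. Old deficient and old wild-type arrays overlapped and differed by 0.49 ± 0.35. The young genotype difference was -0.71 ± 0.35 (limma adjusted p = 0.31), with both groups so dim that no fold is given, and the wild-type age difference was 0.49 ± 0.35 (limma adjusted p = 1). The second probe, at position 1875, was well above background on 2 of 16 arrays, and its old deficient arrays exceeded the young by 1.29 ± 0.56.

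Gimap3 is a GTPase of the mitochondrial outer membrane in T cells. Its only probe lies at chr6:48714463-48714522 on the minus strand (NCBI37/mm9). In deficient mice it gave -7.39, -6.82, -7.50 and -5.87 on the young arrays and -5.45, -5.36, -3.95 and -4.65 on the old. In wild-type mice it gave -5.43, -6.02, -5.42 and -5.53 on the young arrays and -5.37, -5.27, -5.71 and -6.0 on the old. The separation by age in deficient mice had both ends: the young deficient mean of -6.89 was the lowest of the 4 groups and the old deficient mean of -4.85 the highest, with both wild-type means between, at -5.60 and -5.59. The age difference in deficient mice was 2.04 ± 0.36, the interaction 2.03 ± 0.51, and the genotype difference in old mice 0.73 ± 0.36 with overlapping arrays. The probe was well above background on 4 old deficient arrays but on only 1 to 2 arrays of each other group. Since 1 of the 4 young deficient arrays was above background, that group's mean, and with it both differences that hold it, rests mostly on signal at background, and no fold is given. Among young mice deficient brain was lower by a difference of -1.29 ± 0.36, which did not pass (limma adjusted p = 0.086, and 0.024 to 0.74 over the alternatives). Without young deficient array 4, which was the only above-background array of its group, the difference was -1.64 (limma adjusted p = 0.024). The arrays left in that group were then all at background, so this p-value is not read as a genotype difference. Age in wild-type mice gave 0.01 ± 0.36 (95% interval -0.75 to 0.78, limma adjusted p = 1).

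Gimap4, which lies in the same cluster and promotes death of mature T cells, did not follow Gimap3. Its brighter probe (chr6:48641817-48641876, plus strand, NCBI37/mm9) was above background on all 16 arrays. It gave -3.99, -4.85, -2.69 and -4.44 in young deficient, -5.41, -5.45, -3.95 and -4.79 in old deficient brain. Levels were -4.19, -5.43, -5.01 and -4.94 in young and -4.86, -5.03, -5.18 and -4.93 in old wild-type brain. Young deficient array 3 was the highest, and old deficient brain was lower than young by a difference of -0.90 ± 0.41 with overlapping arrays. Without young deficient array 3 that difference was -0.47 and the young genotype difference 0.46. The young genotype difference of 0.90 ± 0.41 had a limma adjusted p of 0.28, and the wild-type age difference was -0.11 ± 0.41 (limma adjusted p = 1). The probe at position 1060 was kept too and differed in pattern. It gave -0.28 ± 0.36 for age in deficient mice, 0.84 ± 0.36 for age in wild-type mice (limma adjusted p = 0.71 over 33071 probes) and -0.76 ± 0.36 for genotype in old mice. The third probe was above background on 1 of 16 arrays.

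Gimap6, which takes part in autophagy in lymphocytes and endothelium, moved the other way. The probe at chr6:48651666-48651725 (minus strand, NCBI37/mm9) was above background on all 16 arrays. It read -0.31, -0.88, -0.92 and -1.23 in young deficient and -1.24, -1.60, -1.55 and -1.55 in old deficient brain. In wild-type brain it read -1.07, -0.89, -0.69 and -0.61 on young arrays and -1.20, -1.01, -1.25 and -1.10 on old arrays. Every old deficient array lay below every young deficient array, though old array 1 lay next to young array 4, and the difference was -0.65 ± 0.16. The old genotype difference was -0.34 ± 0.16. Age in wild-type mice gave -0.32 ± 0.16 (limma adjusted p = 0.87). For age in deficient mice Cd209a lay just inside the threshold and Gimap6 just outside it. Gimap6 was called lower with quantile normalization, with the deposited values, with the mean of the kept probes, with only probes above background on all 16 arrays, and without young deficient array 4.

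Lck and Cd79b are the general T and B cell markers among the 9 genes, and neither separated the groups. Lck (chr4:129225614-129225673, minus strand, NCBI37/mm9) was above background on all 16 arrays. Its levels were -0.45, -0.73, -0.71 and -0.85 in young deficient, -0.98, -0.26, -0.49 and -0.03 in old deficient brain. Young wild-type arrays gave -0.86, -0.76, -0.96 and -0.95, and old wild-type arrays -0.60, -0.64, -0.96 and -1.08. Old deficient array 1 was among the lowest and arrays 2 and 4 were the highest of all, so that age in deficient mice gave 0.25 ± 0.17 and genotype in old mice 0.38 ± 0.17. Genotype in young mice gave 0.20 ± 0.17 (95% interval -0.17 to 0.57, limma adjusted p = 0.58). Age in wild-type mice gave 0.06 ± 0.17 (95% interval -0.31 to 0.43, limma adjusted p = 1).

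Cd79b, a signalling chain of the B cell receptor (chr11:106172780-106172839, minus strand, NCBI37/mm9), was also above background on all 16 arrays. It read -3.77, -3.50, -3.55 and -3.35 in young deficient and -3.88, -4.01, -2.87 and -3.54 in old deficient brain. It read -3.53, -3.84, -3.64 and -3.64 in young and -3.59, -3.09, -3.36 and -3.55 in old wild-type brain. Old deficient array 3 was the highest of the 16 and old deficient array 2 the lowest. The age difference in deficient mice was -0.03 ± 0.20 and became -0.27 without array 3, and the old genotype difference was -0.18 ± 0.20. Genotype in young mice gave 0.12 ± 0.20 (limma adjusted p = 0.79) and age in wild-type mice 0.26 ± 0.20 (limma adjusted p = 1).

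Cd8a, the co-receptor chain of cytotoxic T cells, was well above background on 0 of 16 arrays by either of its probes, and no fold is given. The probe printed in 10 spots read -7.95, -7.97, -6.61 and -7.75 on old deficient arrays and -8.35 to -7.36 on the other 12. Array 3 of the old deficient group was again the array outside the range, with 2 of its 10 spots well above background.

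Cd209a is a mouse relative of DC-SIGN, the human lectin by which dendritic cells bind sugars on microbes, and its level was higher with age in both genotypes. Its brighter probe (chr8:3743481-3743540, minus strand, NCBI37/mm9) was above background on all 16 arrays. It gave -4.87, -3.63, -4.63 and -4.40 in young deficient and -3.42, -2.87, -3.10 and -3.04 in old deficient brain. In wild-type brain it gave -4.27, -4.12, -4.42 and -4.32 on young arrays and -2.52, -2.75, -2.90 and -3.99 on old arrays. Old arrays lay above young arrays within each genotype. The age difference was 1.28 ± 0.29 in deficient mice (2.43-fold). In wild-type mice it was 1.24 ± 0.29 (2.36-fold, 4 of 4 old arrays above all young ones, where 1.32% of all genes were so placed), which did not pass (limma adjusted p = 0.094, and 0.0082 to 0.30 over the alternatives). Without old wild-type array 4, the lowest old array, it was 1.56 and passed (limma adjusted p = 0.0082). The interaction was 0.03 ± 0.41, and the genotype differences were -0.07 ± 0.29 in old mice and -0.10 ± 0.29 in young mice (limma adjusted p = 0.88). The other Cd209a probe, at position 289, was above background on 0 of 16 arrays.

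**Figure D2:**
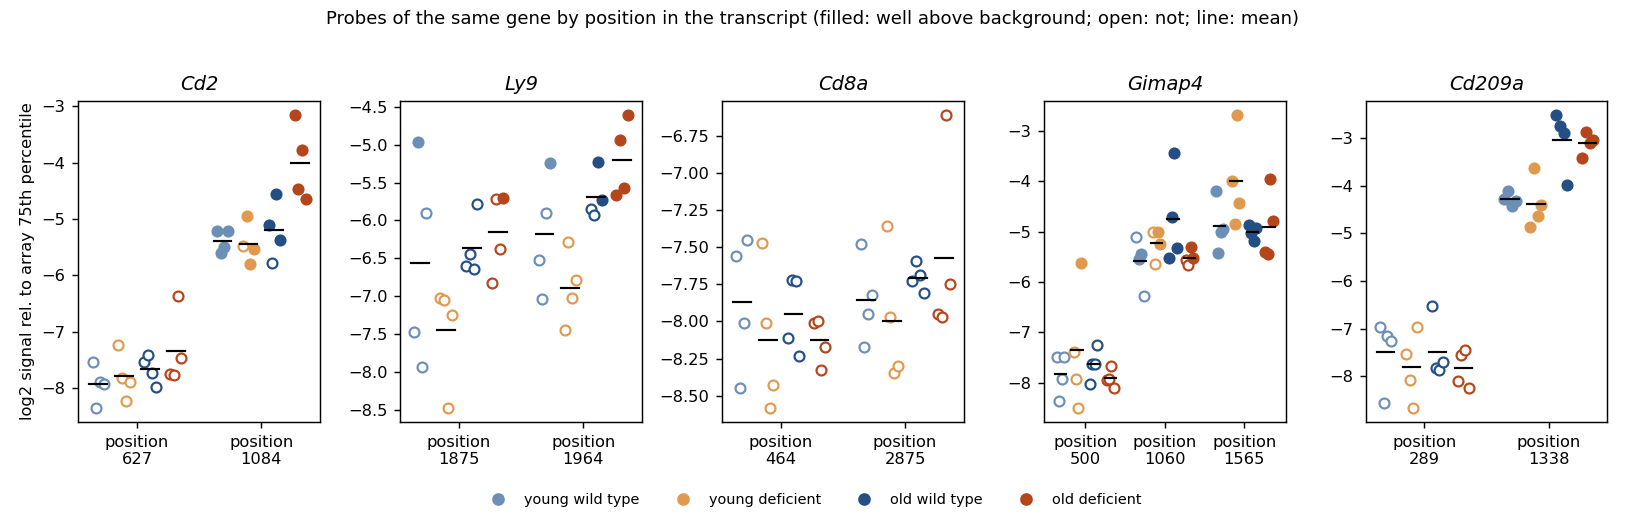
Levels (vertical axes, log2 signal relative to the array's 75th percentile) of all probes of the 5 genes that have more than 1, ordered by position in the transcript, with 1 point per array coloured by group, filled where well above background, and a line at each group mean. The probes of Cd2 and Cd209a nearer the start of the transcript and both probes of Cd8a have open points only, and the kept probes of Gimap4 order the groups differently.

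The rises depended on how background was treated. The calls given here reuse the values by which the genes were chosen and describe only how the choice depends on the processing. With normexp correction, which models the background and adds an offset of 50, the age difference in deficient mice shrank to 0.58 for Cd2, 0.32 for Ly9, 0.43 for Gimap3 and 0.67 for Cd209a, and 0 of the 8 genes were called. In the deposited value table the differences were 0.75, 0.43, 0.66 and 0.87 in the same order, with 3 called higher (Cd2, Gimap3 and Cd209a) and Gimap6 called lower. Direction was kept for these genes under both. With every dim probe left in the fit only Gimap3 was called. With only probes above background on all 16 arrays, Cd209a was called higher and Gimap6 lower, while Cd2, Ly9 and Gimap3 were not among the probes tested. Which genes were called changed also with single arrays. Leaving out young deficient array 1 or 3 left Gimap3 alone, leaving out old deficient array 1 or 3 left Gimap3 and Ly9, leaving out old deficient array 2 or 4 left Gimap3 and Cd2, and leaving out young deficient array 4 left Gimap3 and Ly9 with Gimap6 called lower. Without young deficient array 1 the differences were 1.41 for Cd2, 1.51 for Ly9, 1.87 for Gimap3 and 1.12 for Cd209a, and without old deficient array 3 they were 1.35, 1.82, 1.74 and 1.27.

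**Figure D3:**
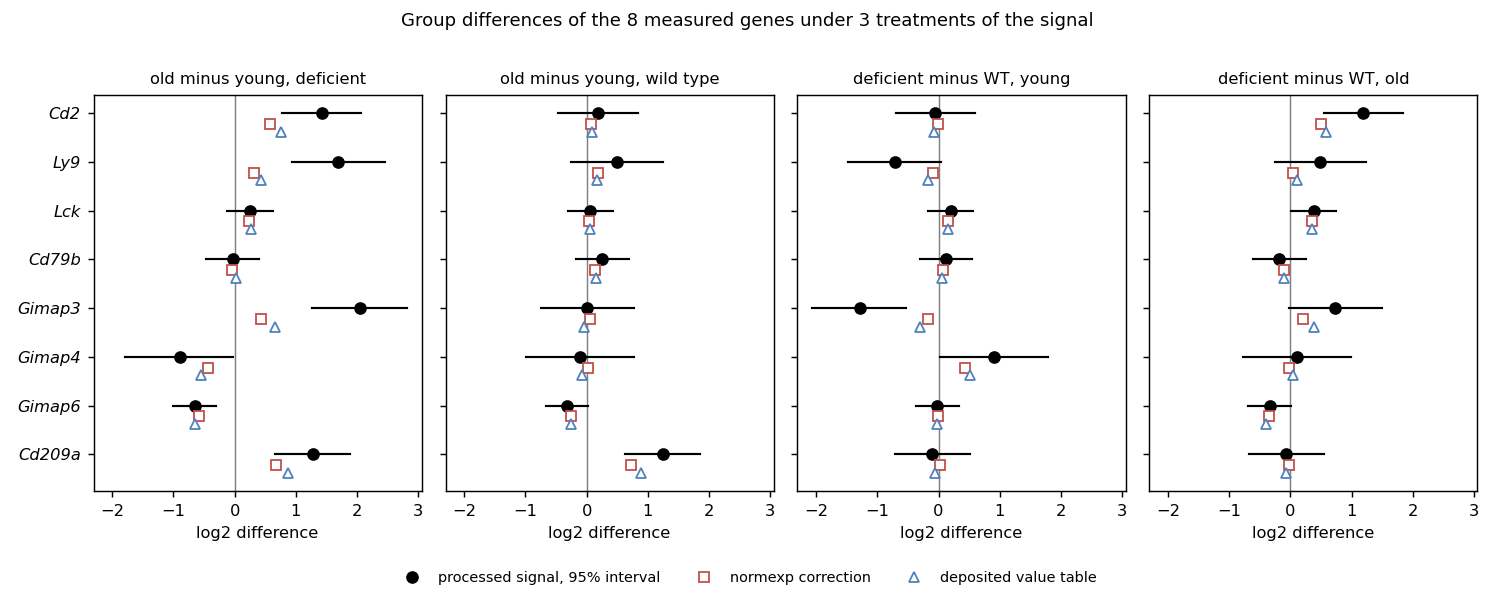
Log2 difference (horizontal axes) of the 8 measured genes in the 4 comparisons, as filled circles with 95% intervals for the processed signal with n = 4 arrays per group, as squares for normexp correction and as triangles for the deposited value table. For Ly9 and Gimap3 the age difference in deficient mice lies at 1.69 and 2.04 for the processed signal but at 0.32 and 0.43 after normexp correction, while Lck, Cd79b and Gimap6 hardly move.

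Within groups the genes showed little common variation from array to array. With each gene centred on its group means, the correlation over the 16 arrays for the 28 pairs of the 8 genes had a median of 0.03 and ran from -0.68 (Cd2 with Lck) to 0.79 (Cd79b with Gimap3), and only that last pair exceeded 0.5. Without old deficient array 3 that pair's correlation was 0.73. All points of a pair share an array, its scaling and its background. The 6 genes outside the set whose levels were most like the mean of the 8 genes over the 16 arrays were Plag1 (r = 0.85), AF138742 (0.84), Zmym1 (0.84), A330015K06Rik (0.83), I830012O16Rik (0.82), which RefSeq names Ifit3b, and a transcribed locus on chromosome 16 (0.82). For comparison Gimap3 itself had r = 0.84, Ly9 0.80, Cd209a 0.77, Cd2 0.69, Lck and Cd79b 0.43 each, Gimap4 -0.17 and Gimap6 -0.74. Each of these 8 genes is part of the mean it is set against, which raises its r, and the 6 outside genes were picked for a high r. Within groups r ran from 0.31 to 0.78 for the 6 and from -0.25 to 0.76 for the 8.

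None of the defining T and B cell markers that could be tested was called higher in old deficient brain. Cd3e was above background on all 16 arrays, with levels from -1.41 to -0.43, and differed by -0.08 ± 0.21 with age in deficient mice (limma adjusted p = 0.83) and by 0.05 ± 0.21 with genotype in old mice (limma adjusted p = 0.98). The brighter Cd4 probe, also above background throughout, differed by -0.33 ± 0.18 (limma adjusted p = 0.29) and 0.02 ± 0.18 (limma adjusted p = 0.99). The other Cd4 probe was well above background on 8 of 16 arrays, 3 of them old deficient, and did not pass the filter. Whether the bright Cd3e and Cd4 probes read T cells in these samples was not tested. Cd8b1 was above background on 0 arrays. Cd3d reached it on 6 of 16 arrays, 3 of them old deficient. Cd3g reached it on 3 arrays, which were old wild-type arrays 2 and 4 (-2.21 and -2.11) and old deficient array 3 (-4.32). Ptprc, the leukocyte common antigen CD45, differed by 0.52 ± 0.30 with age in deficient mice (limma adjusted p = 0.33), and the receptor-proximal adaptors Zap70 and Lat by -0.06 ± 0.29 (limma adjusted p = 0.92) and 0.26 ± 0.27 (limma adjusted p = 0.59). Of the B cell markers, Cd79a has probes that the files place on different chromosomes. The one on chromosome 7 was well above background on 0 of 16 arrays. The brighter one, on chromosome 12, differed by -0.29 ± 0.18 (limma adjusted p = 0.35), and whether it reads Cd79a was not tested. Ms4a1 was above background on 0 arrays.

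Of the 24 genes of the pan-T list, 9 were tested, 5 were never above background (Cd27, Cd8b1, Cd96, Icos and Ubash3a), and only Tcf7 was called, rising by 0.61 ± 0.13 with age in deficient mice (limma adjusted p = 0.025). Tcf7 encodes TCF1, a transcription factor of T cells that is expressed outside them too. The list's median difference in that comparison was 0.00, against -0.01 for all genes. In the list of receptor-proximal signalling 14 of 18 genes were tested. Fyn, a kinase that neurons express strongly, fell with age in deficient mice (-0.35 ± 0.09, limma adjusted p = 0.048). This call turned on single arrays, since Fyn stayed called in 0 of the 16 fits that each left out an array. Of the cytotoxic and NK list 12 of 22 genes were tested and 9 were never above background. Tbx21, the transcription factor T-bet, fell with age in wild-type mice (-2.29 ± 0.26, limma adjusted p = 0.00046) and in deficient mice (-1.90 ± 0.26, limma adjusted p = 0.0026). It was well above background on only 1 of 4 arrays in each old group, so the size of these falls rests mostly on signal at background. With normexp correction they were -0.87 (limma adjusted p = 0.059) and -0.69 (limma adjusted p = 0.063). Cst7, a cystatin that aged microglia also make, rose with age by 1.13 ± 0.19 in wild-type mice (limma adjusted p = 0.014). In deficient mice it rose by 1.79 ± 0.19 (limma adjusted p = 0.00081). All 4 young deficient arrays were at background, so no fold is given. With normexp correction these differences were 0.34 and 0.43, and neither was called. In the deposited value table they were 0.39 (limma adjusted p = 0.13) and 0.59 (limma adjusted p = 0.0051). Cst7 was also called lower in young deficient than in young wild-type brain (limma adjusted p = 0.045), a call kept in 3 of 16 fits that left out an array. In the B and plasma cell list 14 of 23 measured genes were tested. Derl3, a protein of the secretory pathway in plasma cells, was higher in old deficient brain than in old wild-type brain (0.94 ± 0.13, limma adjusted p = 0.0015), and Tnfrsf17, the plasma cell receptor BCMA, was lower (-0.88 ± 0.13, limma adjusted p = 0.0027). Cd37 rose with age in wild-type mice (0.53 ± 0.10, limma adjusted p = 0.039). Of the fits that each left out an array, 10 of 16 kept the call of Tcf7 and 3 of 16 that of Cd37. With normexp correction Tcf7, Cd37 and Tnfrsf17 were not called (limma adjusted p = 0.088, 0.069 and 0.11), while Derl3 was (limma adjusted p = 0.0021).

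The relatives of the proposed genes were also read. Of 5 further GIMAP genes 4 were tested and limma called 0 in any of the 5 comparisons, with 0 to 3 at an unadjusted p under 0.05. The 3 were in age among deficient mice, where 21% of all genes passed that limit. In age among deficient mice Gimap9 differed by 0.88 ± 0.36 (limma adjusted p = 0.19), Gimap1 by -0.25 ± 0.11 (limma adjusted p = 0.20), Gimap5 by -0.30 ± 0.13 (limma adjusted p = 0.20) and Gimap8 by 0.02 ± 0.12 (limma adjusted p = 0.94), and Gimap7 was never above background. Of the SLAM family outside Ly9, 5 of 8 measured genes were tested. Cd48, which is the ligand of CD2, rose with age by 0.48 ± 0.09 in wild-type mice (limma adjusted p = 0.017) and by 0.47 ± 0.09 in deficient mice (limma adjusted p = 0.012), and its genotype differences were 0.13 ± 0.09 in young mice (limma adjusted p = 0.43) and 0.12 ± 0.09 in old mice (limma adjusted p = 0.79). Slamf9 rose with age in wild-type mice (0.86 ± 0.11, limma adjusted p = 0.0012), and Slamf8, a receptor of myeloid cells, in deficient mice (0.90 ± 0.22, limma adjusted p = 0.045). Leaving out each array in turn kept the call of Cd48 in 11 of 16 fits for wild-type mice and 16 of 16 for deficient mice, that of Slamf9 in 16 and that of Slamf8 in 5. In the list of dendritic cells and the CD209 family 18 of 25 measured genes were tested and limma called 0 in any comparison, with 1 to 7 at an unadjusted p under 0.05. The 7 were in age among wild-type mice, where 6.35% of all genes passed that limit, and in age among deficient mice it was 2, against 21% of all genes. Cd209d differed by 0.99 ± 0.21 with age in wild-type mice (limma adjusted p = 0.056) and by 0.33 ± 0.21 in deficient mice (limma adjusted p = 0.36), Cd209f by 0.75 ± 0.22 and 0.37 ± 0.22, and Cd209g by 0.76 ± 0.31 and 0.24 ± 0.31, none of them called.

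Among general leukocyte genes 21 of 22 were tested. In old mice 20 of the 21 had a lower mean in deficient than in wild-type brain, with a median difference of -0.20 against 0.01 for all genes, with 0 called by limma and 7 at an unadjusted p under 0.05, where 9.91% of all genes were. The microglia list moved the same way in that comparison, with 15 of 16 genes lower and a median difference of -0.27. Which cells carry the lower leukocyte levels was not tested. With age Cd48 and Lsp1 rose in wild-type mice (Lsp1 0.70 ± 0.14, limma adjusted p = 0.043) and Cd48 in deficient mice. Of the chemokines and adhesion ligands that draw lymphocytes, 15 of 20 measured genes were tested. Ccl2 and Ccl3 rose with age in deficient mice, by 1.22 ± 0.23 (limma adjusted p = 0.015) and 0.95 ± 0.21 (limma adjusted p = 0.033), and Ccl19, which attracts T cells through CCR7, was lower in old deficient than old wild-type brain (-1.25 ± 0.19, limma adjusted p = 0.0023). The calls of Lsp1, Ccl2, Ccl3 and Ccl19 were kept in 2, 15, 10 and 16 of the 16 fits that each left out an array. Over all these immune lists together 109 genes outside the proposed set were tested. With age in deficient mice 6 were called higher and 2 lower, which is 7.34% against 2.39% of all genes, and with age in wild-type mice 5 higher and 1 lower, which is 5.5% against 0.421%. With genotype 1 was called higher and 2 lower in old mice, and 1 higher and 1 lower in young mice. In the interaction 0 of the 109 were called by limma, and 16 had an unadjusted p under 0.05, as did 10.6% of all genes. With normexp correction limma called 0 of the 109 for age in deficient mice, and 17 had an unadjusted p under 0.05, as did 18% of all genes.

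**Figure D4:**
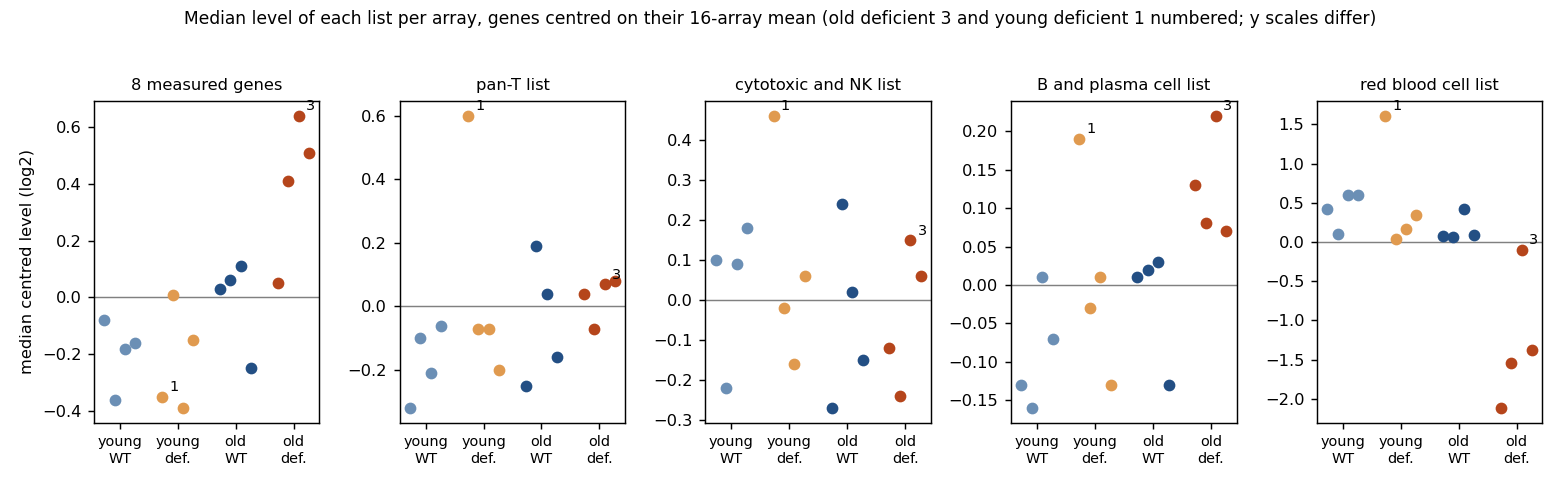
Median level per array (vertical axes, log2, each gene centred on its mean over the 16 arrays, with a scale of its own per panel) of the 8 measured genes, of the pan-T, cytotoxic and NK, B and plasma cell lists and of the red blood cell list, with 1 point per array and old deficient array 3 and young deficient array 1 numbered. The 8 genes run from 0.05 to 0.64 in old deficient brain, while the pan-T list runs from -0.07 to 0.08 there and the red blood cell list from -2.12 to -0.10.

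Array 3 of the old deficient group stood high for several lymphocyte genes that were dim elsewhere. Old deficient array 3 was the highest of the 16 arrays for 4 of the 15 member probes and for 15 of the 92 probes of the pan-T, cytotoxic and B cell lists (16.3%), where it was the highest for 3.5% of all probes. Young deficient array 1 was the highest for 26.1% of these 92 probes, near its 29.8% of all probes. On old deficient array 3 Ccl5, a chemokine of activated T cells, read 0.08, against -3.32 to -1.64 on the other 15 arrays. Cd3d read -3.82 there, against -7.70 to -5.12. Nkg7, a granule protein of cytotoxic cells, read -4.82 by its dimmer probe, which was above background on this array alone, against -8.29 to -5.99. Its brighter probe, above background on all 16 arrays, read 0.22 on old deficient array 3 and 0.03 to 1.52 on the others. Nor did this array exceed the others for the granule proteins Prf1 (-3.15, others -3.52 to -2.23) and Gzma (-3.62, others -5.63 to -2.98). These genes were chosen after their values were seen. Igj, the joining chain of secreted antibodies, read -2.49 on old deficient array 3 and -2.55 on old wild-type array 3, and between -5.73 and -3.93 on the other 14. Cd2, Ly9, Gimap3 and Cd209a were each higher in old than in young deficient mice also without this array, as given above.

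Red blood cell genes moved with the old deficient group. The median centred level of the list ran from -2.12 to -0.10 on old deficient arrays, from 0.04 to 1.61 on young deficient, from 0.06 to 0.42 on old wild-type and from 0.10 to 0.60 on young wild-type arrays. With age in deficient mice 11 of the 11 tested genes had lower means and 6 were called lower, among them Hbb-b1, a beta-globin gene with a near-identical copy in Hbb-b2, which was called too (-2.27 ± 0.44, limma adjusted p = 0.016 for Hbb-b1), and Alas2, the enzyme that starts heme synthesis in red cell precursors (-2.75 ± 0.53, limma adjusted p = 0.015). Old deficient array 3 had the most red cell signal of its group, with Hbb-b1 at 4.26 against 1.76, 1.78 and 3.0. Blood carries lymphocytes too, and the part of blood left in the samples in the levels of the 9 genes was not tested. Markers of monocytes and neutrophils had lower means in 12 of 13 tested genes with age in deficient mice, with 0 called by limma and 6 at an unadjusted p under 0.05, where 21% of all genes were. Of the microglia list Trem2 (-0.78 ± 0.11, limma adjusted p = 0.0022) and Ly86 (-1.24 ± 0.14, limma adjusted p = 0.00023) were lower with deficiency among old mice, and of the border macrophages F13a1 was higher (0.54 ± 0.10, limma adjusted p = 0.013).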

How the data were processed

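Scanner files of 16 arrays were used. Per the file headers, the processed intensity of a spot is Agilent Feature Extraction 10.7.3.1's signal after background subtraction and spatial detrending, and the deposited intensities were not scaled between arrays. The deposited value table holds log2 values whose medians lay between 6.61 and 6.62. Its scale is not stated and was read as quantile-normalized signal, and it served only as an alternative. The submitters' processing notes name limma. Ages stand under the strain tag of the labels and strains under the age tag.

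Outlier spots (98 to 182 per array) were left out, and 0 were saturated. Spots of a probe were averaged as log2 intensity minus the array's 75th percentile. A probe called well above background here had over 50% of its usable spots so. The 33071 probes that cleared background on every array of some group were kept, and the kept probe with the highest mean represented its gene. Group means were estimated over the 16 arrays with limma 3.58.1 in R 4.3.3, files being read by data.table at version 1.17.8, with 12 residual and 2.84 prior degrees of freedom, and tested on simulated data. P-values reflect the spread between samples of a group. Of the 9 symbols 9 matched RefSeq's gene names (GRCm38), used for names only. Whether a probe lies in an exon or UTR was not analysed here. The members and lists were chosen with earlier results of these data known. Named genes are all members, the defining markers and family relatives whatever their values, called genes of each list (at most 4 per comparison, by p), and the 6 most like the member mean. Snap25, Mbp, Gfap, Ccl5, Nkg7, Prf1, Gzma and Igj were chosen after their values were seen. A few genes that the naming rule takes in are not reported here. Alternatives were normexp correction, quantile normalization, the deposited values, 2 other filters, the mean of a gene's probes, fits of only the 2 groups compared, the replicate number as a block, and leaving out each array.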

Additional observations from a re-analysis of the deposited data

Results flagged for a closer look

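Of 60 sets of 4 arrays (15 probes in 4 groups), 4 held an array far from its neighbours by Dixon's ratio, where chance gives about 1 in 20. The dimmer Ly9 probe read -8.47 on young deficient array 3, with the next at -7.25. The Cd8a probe printed in 10 spots read -6.61 on old deficient array 3, with the next at -7.75, which is the array on which Cd3d, Ccl5 and the dimmer Nkg7 probe also stood high. Gimap6 read -1.24 on old deficient array 1, above the next at -1.55, and this array closes the gap to the young deficient group. The dimmer Cd209a probe read -6.52 on old wild-type array 1, with the next at -7.71. The first, the second and the last of these were not well above background.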

How the results depend on the processing

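Signal over background limits these results, since 4 of the 9 genes were near or below background in at least 1 group. No member's difference changed from a call in 1 direction to a call in the other. For young genotype, old genotype, wild-type age, deficient age and the interaction 353, 338, 97, 550 and 43 genes were called, and 2, 3, 6, 8 and 0 of the immune lists. With normexp correction wild-type age gave 52 and deficient age 359, and the lists gave 0 for young genotype, 2 for wild-type age and 0 for deficient age. With quantile normalization the lists gave 5 for old genotype and 1 for the interaction, and with the deposited values 0 for young genotype and 1 for the interaction. With no filter young genotype gave 142, old genotype 225, deficient age 221 and the interaction 22, and the lists 0 for young genotype and 4 for deficient age. With probes above background on all 16 arrays the lists gave 1 for young genotype and 4 for deficient age. In fits of only the 2 groups compared young genotype gave 74, wild-type age 64 and deficient age 118, and the lists 0, 2 and 3. Leaving out each array gave 108 to 408, 178 to 517, 58 to 130, 156 to 657 and 21 to 65 genes in the order above, 0 to 2, 3 to 5, 3 to 7, 4 to 8 and 0 to 1 list genes, and 0 to 1 members in each of young genotype, old genotype and wild-type age. The causes were not tested. Equal replicate numbers share only the slide column, and deviations of same-numbered arrays correlated between -0.44 and 0.27, so the numbers do not pair the samples. With the replicate block young genotype gave 197, deficient age 282 and the interaction 25 genes, and the lists 1 for young genotype, 3 for wild-type age and 4 for deficient age, while the same 4 members were called higher for deficient age and 0 for young genotype and wild-type age.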
